A study of Rattus norvegicus with 6 samples.

Results

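The transporters described here are 10 genes whose products move glucose, lactate and related monocarboxylates, sulfate and dicarboxylates across the proximal tubule: Slc5a1, Slc5a2, Slc5a10, Slc2a2, Slc2a1, Slc5a8, Slc5a12, Slc16a1, Slc13a1 and Slc13a3. They were chosen by name, and a probe belonged to a gene when its accession mapped to that symbol in RefSeq. All 10 had a probe (18 probes together), of 15284 genes with a named probe on the array, and all 10 were among the 11804 genes tested. The renal cortex of 6 male rats of the outbred Sprague-Dawley stock, 5 weeks old when bought, gave the RNA. The control group of 3 rats was dosed with corn oil, and the other group of 3 rats was dosed with tris(2-chloroethyl)phosphate (TCEP), a chlorinated organophosphate flame retardant, at 400 mg/kg/day, each over 4 weeks. Each rat was measured on 1 single-colour Agilent array, and the design text describes the rats of a group as biological replicates. The comparison asks which transcripts of the cortex differ after TCEP.

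The proximal tubule takes back filtered solutes in a relay: a sodium-driven carrier on the urinary (apical) side brings the solute into the cell, and a passive carrier on the blood (basolateral) side lets it out. For glucose the early convoluted segment uses SGLT2 (Slc5a2) with GLUT2 (Slc2a2), and the late straight segment uses SGLT1 (Slc5a1) with GLUT1 (Slc2a1). Lactate, ketone bodies and other short monocarboxylates enter through the sodium-coupled carriers SMCT1 (Slc5a8) and SMCT2 (Slc5a12) and leave through the proton-coupled carrier MCT1 (Slc16a1).

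Of the 61657 probes that are not controls, an array had 67.2% to 69.3% well above background. All 18 transporter probes were well above background on all 6 arrays, and none of their spots was saturated. A level below is the log2 processed signal minus the log2 of the array's 75th percentile, so 0 stands for a signal at that percentile. The percentile was an intensity of 1078 on TCEP replicate 1 and of 966 to 990 on the other arrays, so scaling lowers the levels of that array the most. Levels of different probes are not compared with each other, since probes differ in how strongly they bind. A difference is TCEP minus vehicle on the same log2 scale, and ± gives the SD of a group's 3 arrays. The vehicle arrays lay on slide 1 and the TCEP arrays on slide 2, each with a scan time of its own, so slide and treatment cannot be told apart in any difference given here. In a whole cortex, fewer cells of a type and less RNA per cell cannot be told apart either.

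The monocarboxylate carrier genes Slc5a8 and Slc5a12 and the sulfate carrier gene Slc13a1 had lower signals on every TCEP array than on any vehicle array, by 0.54, 0.28 and 0.25 in mean (differences -0.54, -0.28 and -0.25). For the other 7 genes the groups overlapped. Of the 10 genes, 7 had a lower mean and 3 a higher mean with TCEP, with a median difference of -0.10 against 0.01 over all tested genes. No transporter passed limma's test at a Benjamini-Hochberg adjusted p of 0.05, nor did any other of the 11804 genes (0%). At an unadjusted p under 0.05 there were 2 of the 10 transporters, Slc5a8 and Slc5a12, both lower, where 983 of all genes (8.33%) reached that value, 4.12% as lower and 4.21% as higher. Of those 983 genes 50.6% were higher. Where arrays were not scaled, 869 genes had an unadjusted p under 0.05 and 69.6% of them were higher. Where arrays were centred on spike-in probes, these values were 379 and 62.0%. The TCEP arrays lay below all vehicle arrays for 3 transporters, Slc5a8, Slc5a12 and Slc13a1, and above them for 0. Over all tested genes the groups did not overlap for 15.6%, with 6.97% lower and 8.63% higher. With 10 genes, these counts are a description of the list and not a test of it.

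**Figure D1:**
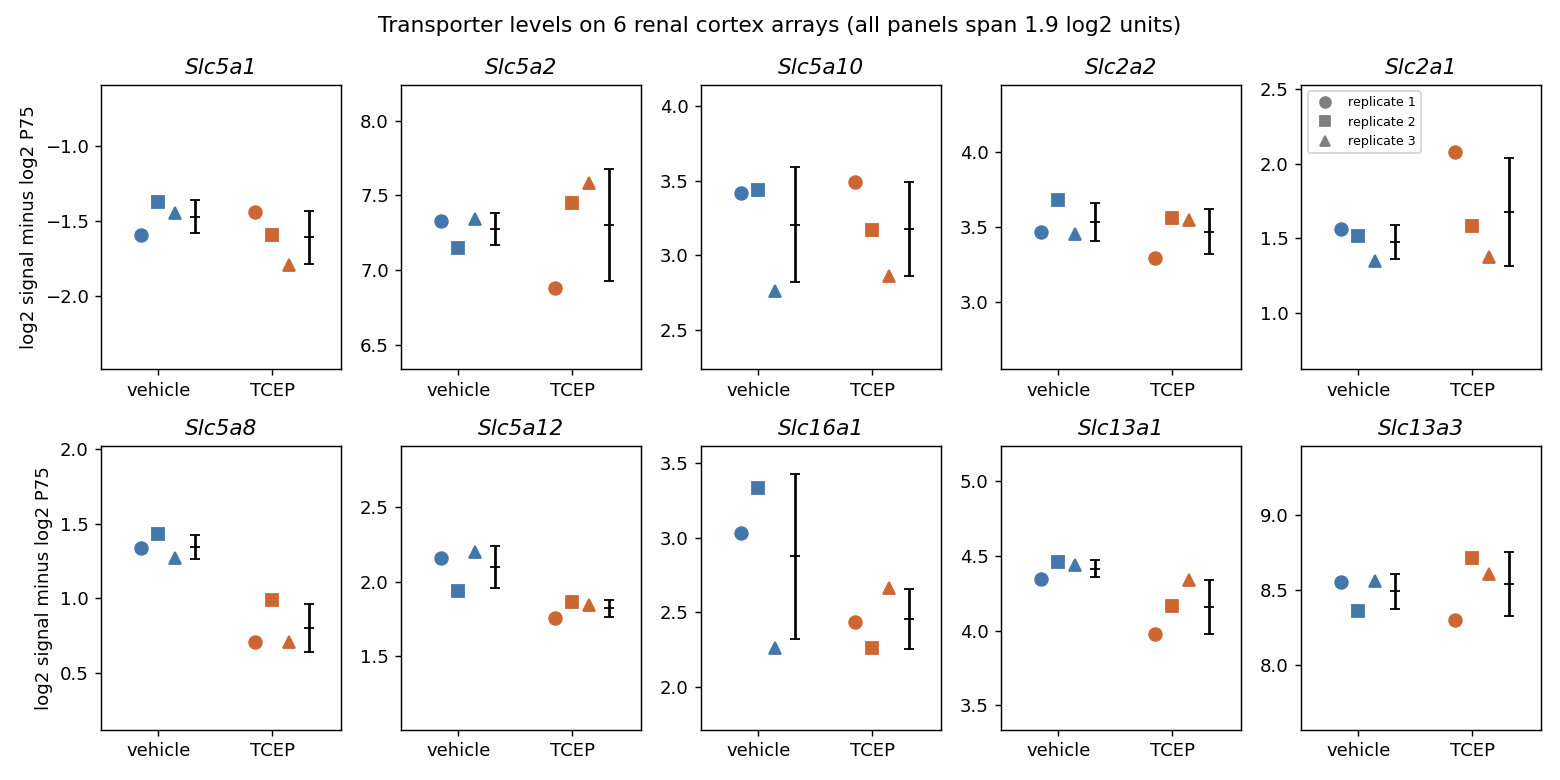
Log2 level of each transporter (y axis, log2 signal minus log2 of the array's 75th percentile) on the 3 vehicle and 3 TCEP arrays, with a symbol for each replicate number and the group mean ± SD as a bar beside the points. Every panel spans the same height but has its own range. The TCEP points lie below all vehicle points for Slc5a8, Slc5a12 and Slc13a1, while the groups overlap in the other panels.

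Slc5a8 encodes SMCT1, the high-affinity sodium-coupled carrier of lactate, pyruvate, butyrate and ketone bodies in the apical membrane. Its level was 1.34, 1.43 and 1.27 on the vehicle arrays and 0.71, 0.99 and 0.71 on the TCEP arrays. All TCEP arrays were therefore below the lowest vehicle array, and the gap between the groups was wider than the range of the vehicle arrays and about as wide as that of the TCEP arrays. The means were 1.34 ± 0.08 (n = 3) and 0.80 ± 0.16 (n = 3), a difference of -0.54 (SE 0.10, 95% confidence interval -0.79 to -0.30), which puts the TCEP signal at 0.686 of the vehicle signal (interval 0.578 to 0.815). The unadjusted p was 0.00178 and the limma Benjamini-Hochberg adjusted p 0.533, so the difference did not pass the threshold over all genes. By unadjusted p Slc5a8 stood in place 31 of 11804. It has 1 probe on the array, so no further probe checks the value. The difference lay between -0.64 and -0.47 under 17 other ways of processing and fitting, leaving out each array included.

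Slc5a12 encodes SMCT2, the low-affinity relative of SMCT1. Its brighter probe was at 2.16, 1.94 and 2.20 on the vehicle arrays and at 1.76, 1.86 and 1.85 on the TCEP arrays. The TCEP arrays were closely grouped and all lay below the lowest vehicle array, replicate 2, by a small margin. The difference was -0.28 (SE 0.09, 95% confidence interval -0.50 to -0.06, unadjusted p = 0.0213, limma adjusted p = 0.557), or 0.825 of the vehicle signal. The other probe of Slc5a12 differed by -0.16 (95% confidence interval -0.40 to 0.07), with TCEP replicate 3 at 1.38 above vehicle replicate 3 at 1.32. Under normexp background correction of the brighter probe the difference was -0.14 (unadjusted p = 0.212).

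Whether Slc5a8 was lower by more than Slc5a12 was asked within arrays, by the log2 signal of one probe minus that of the other. That quantity was lower by 0.27 in the TCEP group (difference -0.27, SE 0.15), an exact two-sided permutation test over the 6 arrays gave p = 0.2, and the adjusted value over the 4 pairs compared was 0.4. With 3 arrays against 3 the smallest p this test can give is 0.1, so an unequal change of the pair was not shown. The value was -0.41 with normexp and -0.15 without vehicle replicate 2.

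The upstream regions of this pair are shown because genes of the same role and the same direction have promoters of opposite make-up. The sequences are the 250 bases before the annotated start in RefSeq on build GRCr8, read 5′ to 3′ on the gene's strand, and the capitals mark each CG dinucleotide. Slc5a8 lies on the plus strand of chromosome 7 (window chr7:25160030-25160279) and Slc5a12 on the plus strand of chromosome 3 (window chr3:117633637-117633886).
Slc5a8: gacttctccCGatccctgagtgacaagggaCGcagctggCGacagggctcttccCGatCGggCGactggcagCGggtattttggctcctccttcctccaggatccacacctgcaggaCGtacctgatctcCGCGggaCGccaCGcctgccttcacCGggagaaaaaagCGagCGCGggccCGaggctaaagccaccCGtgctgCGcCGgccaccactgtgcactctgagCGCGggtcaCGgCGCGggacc
Slc5a12: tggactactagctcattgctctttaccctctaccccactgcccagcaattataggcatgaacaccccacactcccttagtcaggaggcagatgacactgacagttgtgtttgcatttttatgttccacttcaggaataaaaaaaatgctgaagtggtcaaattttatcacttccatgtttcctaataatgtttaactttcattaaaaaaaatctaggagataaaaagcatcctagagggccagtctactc
The Slc5a8 window holds 25 CG dinucleotides, a number reached by 10.4% of the 27457 windows of the same 250 upstream bases in the table, and the Slc5a12 window holds 0. The median over all windows was 6. Among the 10 transporters, 5 had 13 or more (Slc16a1 with 33, Slc5a8, Slc2a1 with 17, Slc13a3 with 15 and Slc5a1 with 13), and 5 had 3 or fewer (Slc5a2, Slc5a10 and Slc2a2 with 3 each, Slc13a1 with 2 and Slc5a12). The 3 transporters without overlap between groups, Slc5a8, Slc5a12 and Slc13a1, fall on both sides of that division. A search of both strands for letters known from the proximal tubule factor HNF4 (CAAAGTCCA) found 0 of the 10 windows with a match, against 0.331% of all windows. No match says only that these exact letters are not in these windows.

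Slc16a1 encodes MCT1, which carries lactate and ketone bodies together with a proton. It was at 3.03, 3.33 and 2.26 on the vehicle arrays and at 2.44, 2.26 and 2.66 on the TCEP arrays. The vehicle group spread over more than a log2 unit and held both the highest array, replicate 2, and the lowest, replicate 3. The means of 2.87 ± 0.55 and 2.45 ± 0.20 differed by -0.42 (SE 0.28, 95% confidence interval -1.12 to 0.28, limma adjusted p = 0.728), which is within the spread of the vehicle arrays. Without vehicle replicate 2 the difference was -0.19 and without vehicle replicate 3 it was -0.73. Red cells also carry MCT1, and the 4 measured of 5 listed red cell markers (Hbb, Hba-a1, Alas2 and Ahsp, all well above background in at least 1 group) had a summed linear level of 605, 660 and 461 on the vehicle arrays and 465, 499 and 558 on the TCEP arrays. The same 3 arrays, vehicle replicates 2 and 1 and TCEP replicate 3, were highest for Slc16a1 and for the red cell sum, and vehicle replicate 3 was lowest for both, by narrow margins. This likeness was picked out after the values were seen, and the part of red cells in the Slc16a1 levels was not tested.

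Slc13a1 encodes NaS1, the apical sodium-sulfate carrier that sets how much sulfate is kept from the urine. Its brightest probe was at 4.35, 4.46 and 4.44 on the vehicle arrays and at 3.98, 4.17 and 4.34 on the TCEP arrays. The vehicle arrays agreed closely, and TCEP replicate 3 fell just below the lowest of them. The difference was -0.25 (SE 0.11, 95% confidence interval -0.51 to 0.00319, unadjusted p = 0.0521, limma adjusted p = 0.602), or 0.838 of the vehicle signal. Its further probes differed by -0.14 and -0.22, and for both the groups overlapped. Without TCEP replicate 1 the difference was -0.16.

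Slc13a3 encodes NaDC3, the basolateral carrier of succinate, 2-oxoglutarate and other dicarboxylates. It was at 8.55, 8.36 and 8.56 on the vehicle arrays and at 8.30, 8.71 and 8.61 on the TCEP arrays. On these scaled levels TCEP replicate 1 was the lowest of the 6 arrays and TCEP replicate 2 the highest. Before scaling vehicle replicate 2 was the lowest, at an intensity of 317960 against 339668 on TCEP replicate 1. The groups overlapped fully. The difference was 0.05 (95% confidence interval -0.26 to 0.36, limma adjusted p = 0.936). Within arrays, the log2 signal of Slc13a1 minus that of Slc13a3 was lower by 0.30 with TCEP (difference -0.30, SE 0.12), and every TCEP array lay below the vehicle arrays. The exact two-sided permutation p was 0.1, the smallest possible, and 0.4 adjusted over the 4 pairs. The value was -0.19 with normexp (exact permutation p = 0.4) and -0.25 with the mean over a gene's probes (exact permutation p = 0.3).

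Slc5a2 encodes SGLT2, the high-capacity carrier that recovers most filtered glucose and the target of the gliflozin drugs. Its level was 7.33, 7.15 and 7.34 on the vehicle arrays and 6.88, 7.45 and 7.58 on the TCEP arrays. The TCEP group held both the lowest array, replicate 1, and the highest, replicate 3, and its SD of 0.37 exceeded that of 0.11 in the vehicle group. The difference was 0.03 (SE 0.19, 95% confidence interval -0.44 to 0.50, limma adjusted p = 0.978). That interval in linear terms runs from 0.735 to 1.41 of the vehicle signal, so these arrays do not exclude a change inside it. Its further probes gave 0.01 and 0.06, and TCEP replicate 1 was lowest and TCEP replicate 3 highest at all 3 probes.

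Slc2a2 encodes GLUT2, the basolateral exit of the same early segment. It was at 3.47, 3.68 and 3.45 on the vehicle arrays and at 3.29, 3.56 and 3.55 on the TCEP arrays. TCEP replicate 1 was again the lowest array, and the other TCEP arrays lay among the vehicle arrays. The difference was -0.07 (95% confidence interval -0.33 to 0.20, limma adjusted p = 0.887), with -0.05 and -0.09 at the further probes. Leaving out TCEP replicate 1 or vehicle replicate 2 turned its sign, to 0.02 and 0.0057.

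Slc5a1 encodes SGLT1, the low-capacity, high-affinity carrier of the late segment. It was at -1.59, -1.37 and -1.44 on the vehicle arrays and at -1.44, -1.59 and -1.79 on the TCEP arrays. The groups overlapped, with TCEP replicate 3 the lowest array. The difference was -0.14 (95% confidence interval -0.41 to 0.14, limma adjusted p = 0.770), and the other probe gave -0.15. It was -0.24 with normexp and -0.05 without TCEP replicate 3. Within arrays, Slc5a2 minus Slc5a1 differed by 0.17 (SE 0.33) between groups, with an exact two-sided permutation p = 0.7, also 0.7 after adjustment.

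Slc2a1 encodes GLUT1, the widely expressed glucose carrier that serves the late segment's basolateral side. It was at 1.56, 1.52 and 1.35 on the vehicle arrays and at 2.08, 1.58 and 1.37 on the TCEP arrays. TCEP replicate 1 stood apart, and the other TCEP arrays lay in or close to the vehicle range. The difference was 0.20 (95% confidence interval -0.26 to 0.66, limma adjusted p = 0.794), and -0.00037 without TCEP replicate 1. The within-array difference of Slc2a2 minus Slc2a1 was -0.27 (SE 0.30, exact two-sided permutation p = 0.7, adjusted 0.7), and 0.02 without TCEP replicate 1. On that array the 3 measured of 5 listed white fat markers (Adipoq, Cidec and Fabp4) had the highest summed linear level, 3.67, against 1.85 to 2.69 on the other TCEP arrays and 1.26 to 3.07 on the vehicle arrays; of the other listed fat markers, Lep was not well above background on all arrays of either group. All 3 measured fat markers had a higher mean with TCEP, with a median difference of 0.66. The groups overlapped for Cidec, at 0.66 (SE 0.59), and for Adipoq, at 0.09 (SE 0.16). Fabp4 differed by 1.41 (limma unadjusted p = 0.0329, adjusted p = 0.565) without overlap of the groups, where 8.63% of all tested genes were higher without overlap. Its signal was low, at -4.14, -3.82 and -4.20 on the vehicle arrays and -1.58, -2.70 and -3.67 on the TCEP arrays. The part of fat in the Slc2a1 level was not tested.

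Slc5a10 encodes SGLT5, an apical carrier of mannose and fructose. It was at 3.42, 3.43 and 2.76 on the vehicle arrays and at 3.49, 3.17 and 2.86 on the TCEP arrays. Each group held arrays near the top and near the bottom of the whole range. The difference was -0.03 (95% confidence interval -0.62 to 0.56, limma adjusted p = 0.981), against an SD within groups of 0.38 and 0.31.

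**Figure D2:**
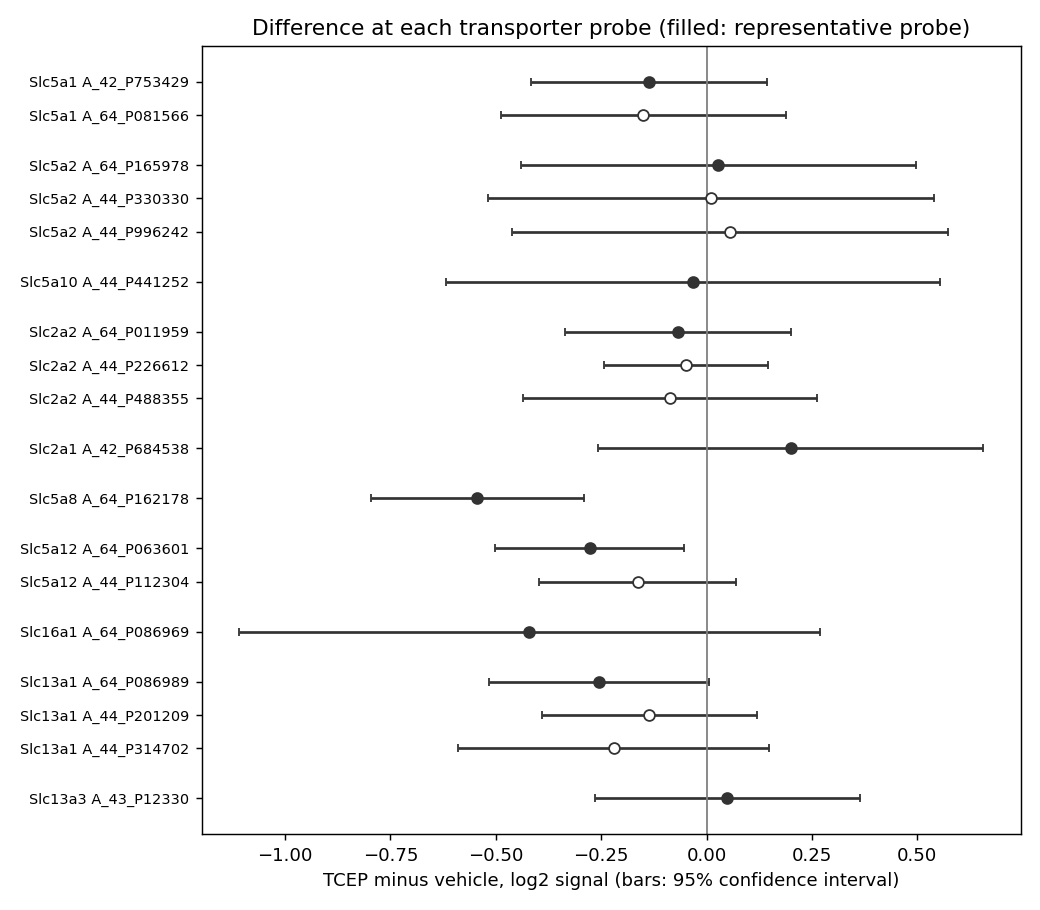
Difference of TCEP minus vehicle (x axis, log2 signal) at each of the 18 transporter probes, with its 95% confidence interval from the limma fit on all 41040 detected probes. Filled points are the probe that stands for the gene. The intervals of the Slc5a8 probe and of the brighter Slc5a12 probe lie below 0, and the other intervals include 0.

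Each of the 5 genes with several probes had the same sign at all of its probes. In the fit of all 41040 detected probes, 0 passed an adjusted p of 0.05, and the transporter probes ranged from -0.54 at Slc5a8 to 0.20 at Slc2a1.

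The arrays differed among themselves in markers of the proximal segments, and the levels of some transporters had a like order over the arrays. All 6 of the convoluted segment markers (Slc34a1, Slc34a3, Slc4a4, Slc6a19, Lrp2 and Cubn) and all 5 of the straight segment markers (Slc7a13, Aqp7, Ggt1, Slc3a1 and Slc22a7) were well above background in at least 1 group, as the labelled tissue would hold them. The summed linear level of the convoluted markers was 557, 528 and 551 on the vehicle arrays and 472, 560 and 568 on the TCEP arrays. TCEP replicate 1 was lowest, vehicle replicate 2 next, and TCEP replicate 3 highest, and the same arrays took those places for Slc5a2. The brightest markers dominate such a sum, and single markers differed in order. Slc34a3 and Lrp2 were also lowest on TCEP replicate 1 and highest on TCEP replicate 3. Slc34a1, however, was highest on TCEP replicate 2, at 8.51, and Cubn was lowest there, at 5.09. The straight markers summed to 442, 592 and 373 on the vehicle arrays and to 679, 526 and 416 on the TCEP arrays. TCEP replicate 1 and vehicle replicate 2 were highest and vehicle replicate 3 lowest, as they were for Slc5a10. These likenesses were picked out after the values were seen and rest on 6 arrays that share tissue and scaling, and their part in the differences was not tested. Other transporters of these segments had another order. Slc2a2 of the early segment was highest on vehicle replicate 2, at 3.68. Slc5a1 of the late segment was lowest on TCEP replicate 3, at -1.79, and not on vehicle replicate 3, at -1.44.

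Neither marker sum separated the groups. Of the convoluted markers 3 had a higher and 3 a lower mean with TCEP (median difference -0.0078), and of the straight markers 4 had a higher and 1 a lower mean (median 0.34), with 0 passing the adjusted threshold in either list. When each array was centred on the mean log2 level of the 6 convoluted markers, a setting chosen after seeing the data, Slc5a8 differed by -0.52 (unadjusted p = 0.010), Slc5a12 by -0.25 (unadjusted p = 0.0824) and Slc13a1 by -0.23 (unadjusted p = 0.0819), so that Slc5a12 no longer had an unadjusted p under 0.05. The median over all tested genes was 0.04 in that setting, against 0.01. Without TCEP replicate 1, which was lowest in the convoluted and highest in the straight sum of scaled levels, Slc5a8 differed by -0.50 and Slc5a12 by -0.25.

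Several markers of other cell types also had lower means with TCEP, by amounts like those of Slc5a12 and Slc13a1, and none passed the adjusted threshold. Of the collecting duct markers (7 of 7 measured) 6 were lower and 1 higher, with a median difference of -0.25, and 3 had an unadjusted p under 0.05. Over all tested genes 8.33% had such a p, and 6.97% were lower without overlap of the groups. Among the collecting duct markers the chloride-bicarbonate exchanger Slc26a4 (pendrin) differed by -0.49 (unadjusted p = 0.0105) and the proton pump subunit Atp6v1b1 by -0.29 (unadjusted p = 0.0060), both without overlap of the groups. In the same list Aqp2 differed by -0.09 and Slc4a1 by 0.05. Both distal convoluted markers measured of 4 listed were lower, Calb1 (calbindin) by 0.58 (difference -0.58, unadjusted p = 0.0334) and the salt carrier Slc12a3 by 0.34 (difference -0.34). All 5 podocyte markers were lower in mean, with a median of -0.23 and 0 at an unadjusted p under 0.05. Of the thick ascending limb markers (3 of 4 measured) the potassium channel gene Kcnj1 differed by -0.32 (unadjusted p = 0.0111), with the other two at 0.02 and 0.04, and of the 5 endothelial markers 4 were lower, with a median of -0.06. The summed levels, which the brightest probes dominate, overlapped between groups for each of these lists, with 152 to 218 for the collecting duct on vehicle arrays and 159 to 165 on TCEP arrays. The single markers given here were named after their values were seen. The part of these cell types in the transporter differences was not tested.

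**Figure D3:**
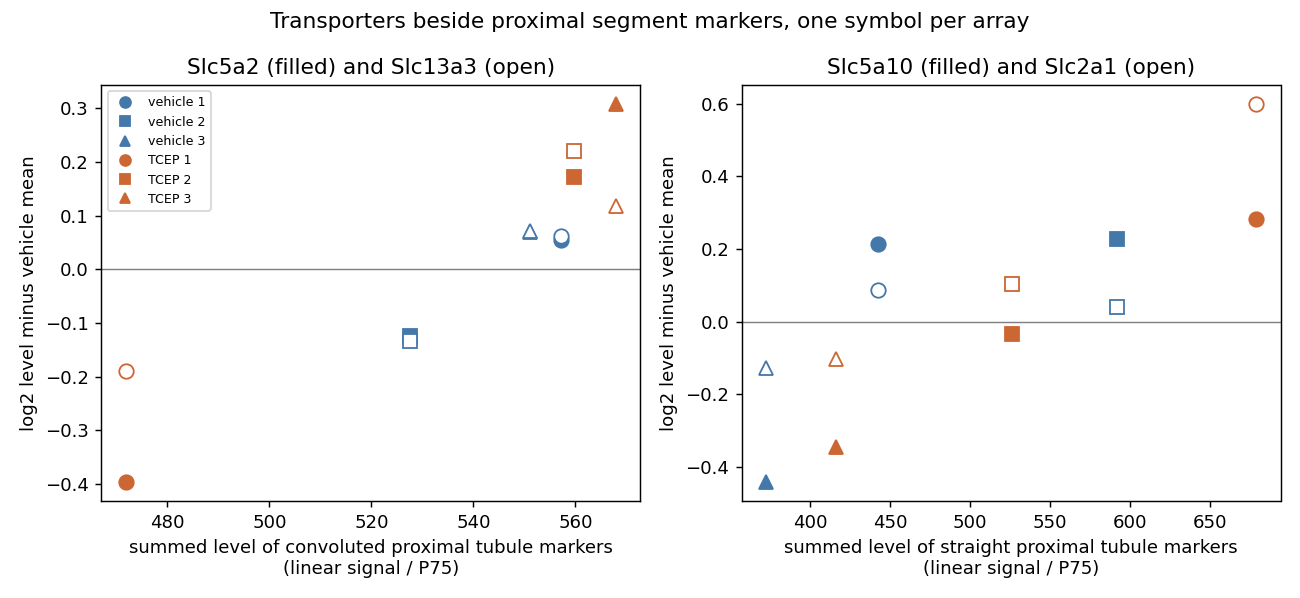
Log2 level of transporters relative to their vehicle mean (y axis) against the summed linear level of segment markers (x axis, signal over the 75th percentile) on the 6 arrays, with colours for groups and shapes for replicate numbers. On the left, Slc5a2 (filled) and Slc13a3 (open) are lowest on TCEP replicate 1, where the convoluted markers sum to 472. On the right, Slc5a10 (filled) and Slc2a1 (open) are highest on TCEP replicate 1, where the straight markers sum to 679.

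Among the other carriers of the same families, none passed the adjusted threshold in either direction. Of 10 measured sugar and polyol carriers outside the 10 genes (13 listed), 5 were higher and 5 lower in mean, with a median of 0.05. Slc5a11, the inositol carrier SMIT2, was at 2.46, 2.22 and 2.36 on the vehicle arrays and 2.59, 2.74 and 2.76 on the TCEP arrays. All its TCEP arrays lay above all vehicle arrays, a difference of 0.35 (SE 0.09, unadjusted p = 0.00853, limma adjusted p = 0.535), opposite in sign to its relatives Slc5a8 and Slc5a12. The urate carrier Slc2a9 (GLUT9) differed by 0.23 (SE 0.15) and the proton-coupled inositol carrier Slc2a13 by 0.32 (SE 0.22), each with overlapping groups.

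Of 10 measured Slc16 carriers (12 listed) 3 were higher and 7 lower in mean, with a median of -0.06. Slc16a7, the high-affinity monocarboxylate carrier MCT2, differed by -0.25 (SE 0.16) and Slc16a11 by 0.11 (SE 0.08), and the groups overlapped for both. Of 3 measured further sulfate and dicarboxylate carriers (4 listed), Slc26a1, the basolateral sulfate exchanger that works in series with Slc13a1, differed by -0.16 (95% confidence interval -0.51 to 0.19). The apical dicarboxylate carrier Slc13a2 differed by 0.08 (SE 0.16) and the citrate carrier Slc13a5 by -0.11 (SE 0.50).

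Of the 8 accessory and scaffold genes, all measured, 5 were higher and 3 lower in mean (median 0.06) and 0 passed. Nherf1, a brush border scaffold, differed by 0.29 (SE 0.16), Nherf2 by -0.23 (SE 0.17) and Emb, which encodes embigin, a chaperone of monocarboxylate carriers, by -0.27 (SE 0.19). The groups overlapped for each of these. Basigin (Bsg), which brings MCT1 to the membrane, differed by -0.04 (95% confidence interval -0.23 to 0.15), the scaffold Pdzk1 by 0.04 and Pdzk1ip1, the partner of SGLT2, by 0.08. These last 3 were named after their values were seen.

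Of 9 measured enzymes that make or use lactate and ketone bodies (10 listed) 3 were higher and 6 lower in mean (median -0.0053). Bdh1, which interconverts the ketone bodies 3-hydroxybutyrate and acetoacetate, was at 1.05, 1.14 and 0.72 on the vehicle arrays and 1.36, 1.30 and 1.35 on the TCEP arrays. All TCEP arrays lay above the vehicle arrays, a difference of 0.37 (SE 0.12, unadjusted p = 0.0209, limma adjusted p = 0.557). Malic enzyme (Me1) differed by 0.24 (SE 0.12). Hnf4a, a transcription factor of proximal tubule identity, differed by 0.09 (SE 0.19).

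The genes whose profile over the 6 arrays was closest to that of Slc5a8, by the root mean square distance of centred log2 levels, were Ephb1 (0.084), Flrt2 (0.084) and Lima1 (0.089). They differed between groups by -0.40, -0.40 and -0.40, each with every TCEP array under the vehicle arrays, and none passed the adjusted threshold (limma adjusted p = 0.535, 0.533 and 0.535). A distance over 6 arrays picked from 11804 genes describes these arrays only. Genes picked for a profile close to that of Slc5a8 share its group difference by that choice, so their differences are no further result.

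**Figure D4:**
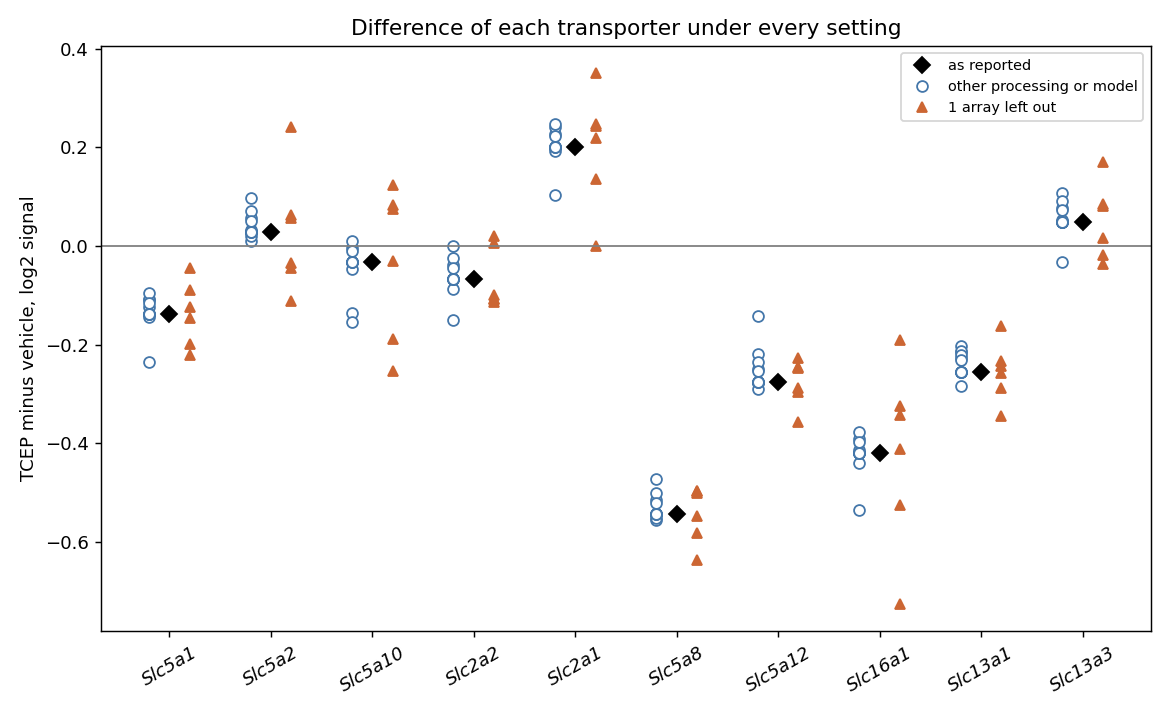
Difference of TCEP minus vehicle (y axis, log2 signal) for each transporter as reported (diamonds), under other processing or models (open circles) and with 1 array left out (triangles). Slc5a8 stays between -0.64 and -0.47 and Slc5a1, Slc5a12, Slc16a1 and Slc13a1 also stay below 0, while Slc5a2, Slc5a10, Slc2a2, Slc2a1 and Slc13a3 cross 0 in at least 1 setting.

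Across the settings plotted for each transporter, 5 of the 10 genes kept a negative difference throughout. The 5 genes that crossed 0 had differences between -0.07 and 0.20 as reported, and their 95% confidence intervals all include 0.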

How the data were processed

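Probe values come from the authors' deposited scanner files of Agilent Feature Extraction 10.7.1.1, per the file headers (10.7 in the submitters' processing notes). Per the file headers, the processed signal that the authors deposited is a linear intensity, corrected for background within each array and not yet made comparable between arrays. Levels are its log2 minus that of the 75th percentile of the array's probes, controls aside. Cy3-labelled cRNA was made from 0.2 ug of RNA, per the labels' protocols. Of 62976 spots, 1319 were controls, and 12 probes with an outlier mark were left out, none of a transporter. Accessions matched RefSeq (GRCr8, names only) for 27453 probes (44.5%). The brightest probe on average stood for a gene, and a gene entered the test if every array of 1 group or more detected that probe well above background. The fit used limma 3.58.1 in R 4.3.3 (lmFit, eBayes, two-sided, 5.93 degrees of freedom). It was also run on simulated data with planted changes larger than those of the transporters and without a slide effect. That run says nothing on differences of the size reported here. Promoter windows and figures used Python 3.11.15, pandas 2.3.3 and matplotlib 3.10.9. The number of arrays limits the precision.

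The transporters, the lists and the pairs were chosen with earlier results of these data known. The rule named all 10 transporters, up to 3 genes per related list with the smallest p, and the 3 closest profiles; some genes of those lists are not reported here. Alternatives were quantile normalization, no scaling, spike-in centring, normexp with an offset of 50 on median spot signals, no filter, detection on all 6 arrays, the mean over probes, the authors' series matrix, a replicate block, a variance trend, array weights and leaving out each array.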

Additional observations from a re-analysis of the deposited data

How the results depend on the processing

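With only 3 arrays per group on separate slides, the confidence intervals of all transporters but Slc5a8 and Slc5a12 include 0. Dim probes elsewhere on the array lie near background, while the transporter probes were well above it. No transporter passed the adjusted threshold under any of the 17 alternatives or the added centring on convoluted segment markers. Over all genes, 0 passed in every setting but 1: without TCEP replicate 3, 1 gene did (Dio2, limma adjusted p = 0.0432, named after its value was seen), so the count ranged from 0 to 1 when an array was left out. Genes at an unadjusted p under 0.05 numbered 983 as reported, 1568 with normexp, 379 with spike-in centring and 448 with the added centring; the cause was not tested. The median difference of the transporters stayed below 0, between -0.18 and -0.06. Which transporters had a limma unadjusted p under 0.05 varied with the setting. Slc5a12 did not with spike-in centring (0.186) or without TCEP replicate 1, vehicle replicate 1 or vehicle replicate 3 (0.0626, 0.0697 and 0.0663). Slc13a1 did with quantile normalization (0.0253), Slc5a1 with normexp (0.0483) and Slc16a1 without vehicle replicate 3 (0.00673).

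Slc13a3 turned to -0.032 with normexp, and Slc5a10 to 0.00996 without scaling. Leaving out 1 array gave ranges of -0.036 to 0.17 for Slc13a3, -0.00037 to 0.35 for Slc2a1, -0.11 to 0.019 for Slc2a2, -0.25 to 0.12 for Slc5a10 and -0.11 to 0.24 for Slc5a2. For the within-array differences the ranges were -0.46 to 0.0198 for Slc2a2 minus Slc2a1 and -0.067 to 0.46 for Slc5a2 minus Slc5a1. With the replicate number as a block, 0 genes passed, so no transporter did, and 850 had an unadjusted p under 0.05. Slc13a1 was then among them (limma unadjusted p = 0.0470). Deviations of same-numbered arrays correlated at -0.15, -0.10 and 0.23, so the numbers were not taken to pair the rats.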
